A study of Sus scrofa with 6 samples.

Results

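The chemokine genes described here were CCL20, CXCL2, CXCL8, CCL2, CCL8, CXCL14 and CCL5 in neonatal pig Sertoli cells (NPSC), with or without exposure to human serum that held active complement. A list of 10 chemokine genes had been chosen by measured values of the same comparison, and 7 of them were found among the 25149 genes of the count tables, of which 11806 could be given a symbol. CXCL12, CXCL10 and CX3CL1 were not matched by symbol and have no values here. Because these libraries served to choose the genes, their values are given as a description, with no test.

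Baseline NPSC were 3 libraries of wild-type pig testis cells cultured overnight in medium with 10% fetal bovine serum (FBS). Complement NPSC were 3 libraries of the same kind of cells held for 90 min in that medium mixed in equal parts with human serum whose complement had been preserved. Per the study's methods the cells came from testes of 3 neonatal litters with different birth dates and grew as monolayers. The serum was a pool of blood group AB. Baseline plates received medium in its place, for which the methods name no FBS. Complement therefore cannot be told apart from the other components of human serum in this design.

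Chemokines are small secreted proteins that draw leukocytes along a gradient by binding receptors coupled to G proteins. Their names follow the spacing of the first cysteines: CC ligands mainly attract monocytes, lymphocytes and eosinophils, and CXC ligands with a glutamate-leucine-arginine motif, CXCL2 and CXCL8 among them, attract neutrophils through CXCR1 and CXCR2. Many chemokine genes are transcribed within minutes to hours of NF-kB activation. In the testis, Sertoli cells nurse germ cells and restrain immune responses, while the tissue's macrophages are a usual source of CC ligands.

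The libraries held 6796183, 7160346 and 8371923 counts in baseline NPSC 1 to 3 and 3927472, 3641518 and 6403606 in complement NPSC 1 to 3. As a gauge of reads that fall on genes with little expression, the counts that fell on 48 olfactory receptor genes came to 2.12, 1.33 and 1.30 counts per 1000000 library counts (CPM) and kb of exon at baseline, and 3.51, 3.85 and 1.68 with complement. This density was highest in complement NPSC 1 and 2, so low levels are set against it below. Of 11 Sertoli cell markers 9 were listed (AMH and INHBB were not matched), led by CLU and INHA, and their summed level ranged from 1909 to 2850 CPM per kb in baseline NPSC and from 1269 to 1466 in complement NPSC. EdgeR called none of the 9 at its threshold, 5 were lower and 2 higher at an unadjusted p under 0.05 (4.28% and 10.9% of all 17512 genes tested), and DESeq2 called 1 lower, CLU (0.125% of the genes it tested). Leydig cell markers, led by INSL3, were present too, at 1042 to 1274 CPM per kb against 789 to 854, and peritubular myoid cell markers, led by ACTA2, at 1685 to 2555 against 1356 to 2447, so transcripts of other testis cells were in the libraries too. In such bulk samples fewer cells of a type and less RNA per cell cannot be told apart. Endothelial markers summed to 85.8 to 127.3 against 65.8 to 142.3 CPM per kb and germ cell markers to 43.1 to 57.3 against 40.0 to 61.3. In these 4 lists edgeR and DESeq2 called 0, with 1 Leydig cell marker lower at an unadjusted p under 0.05 (4.28% of all genes).

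For 5 of the chemokine genes the groups did not overlap. The lowest complement NPSC library exceeded the highest baseline NPSC library for CCL20, CXCL2, CXCL8 and CCL2, and the highest complement NPSC library was below the lowest baseline NPSC library for CCL8. CXCL14 and CCL5 overlapped. Over all 17512 genes tested, the groups did not overlap with complement NPSC higher for 8.95% and lower for 8.14%, and nothing is read from the count of 5, since the genes were chosen on this contrast. Under each of 4 scalings of the libraries the count was 5.

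**Figure D1:**
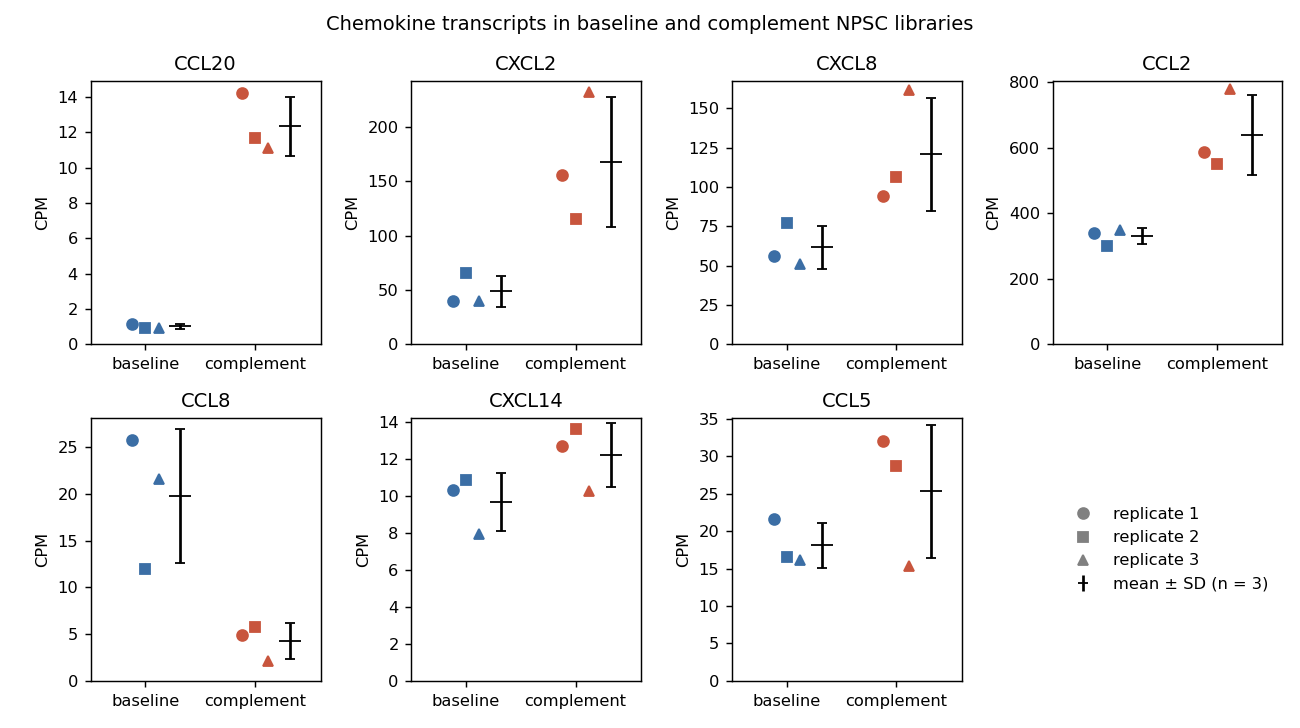
Level of each chemokine gene in CPM (vertical axes, each from 0) in the 3 baseline NPSC libraries (blue) and the 3 complement NPSC libraries (red), with the marker shape giving the replicate and the black bar the mean ± SD. The groups are apart for CCL20, CXCL2, CXCL8, CCL2 and CCL8 and overlap for CXCL14 and CCL5, and complement NPSC 3 is the highest library for CXCL2, CXCL8 and CCL2.

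CCL20 attracts lymphocytes and dendritic cells that carry CCR6, and is a typical target of NF-kB and of IL-17. Its gene, ENSSSCG00000016254, lay on the plus strand of chr15 from 143050315 to 143053598 in the coordinates of the files, with 4 exon blocks that cover 778 bp. It had 8, 6 and 7 counts in baseline NPSC 1 to 3 and 64, 49 and 64 in complement NPSC 1 to 3. In CPM these were 1.16, 0.93 and 0.92 against 14.24, 11.69 and 11.12. The complement NPSC libraries lay close together and complement NPSC 1 was the highest, unlike for the neutrophil ligands. The mean level was 1.00 ± 0.135 CPM (SD, n = 3) at baseline and 12.35 ± 1.67 CPM (SD, n = 3) with complement. The log2 fold change (LFC) was 3.59 with a standard error (SE) of 0.39, a 12.07-fold difference and the highest rank of all genes tested. The baseline counts were 0.70, 0.90 and 0.91 times what the olfactory receptor density predicts for a gene of this length, so the baseline level of CCL20 was not above that density. The complement NPSC counts were 5.22, 3.90 and 8.51 times the prediction. The fold of CCL20 thus rests on a baseline at the level of this background: with the background subtracted from each library its LFC was 9.08, and with the density as a covariate 3.43. Some chemokine receptors lay below their own prediction, down to 0.347 times. The density is thus not a floor for every gene, and the subtracted value is uncertain to that extent.

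CXCL2 and CXCL8, which draw neutrophils, lay in 1 cluster on chr8 that runs from 74083530 to 74311988, a span of 228.5 kb. CXCL2 (ENSSSCG00000008959) lay at 74206843 to 74311988 on the plus strand, with 5 exon blocks that cover 1240 bp and a longest intron of 103086 bp. That span encloses a gene without a symbol, and reads that fit several near-identical CXC genes could be split between them, so the CXCL2 count is uncertain to that extent. It had 277, 422 and 305 counts in the baseline libraries against 698, 482 and 1337 with complement. The levels were 40.16, 65.33 and 40.19 CPM against 155.35, 114.98 and 232.23 CPM. Baseline NPSC 2 was the highest of its group and complement NPSC 2 the lowest of its own, which left a gap between 65.33 and 114.98 CPM. Its mean was 48.6 ± 14.5 CPM (SD, n = 3) at baseline and 167.5 ± 59.6 CPM (SD, n = 3) with complement, an LFC of 1.79 (SE 0.28) and a 3.46-fold difference. Without complement NPSC 3 the LFC was 1.45, the lowest when 1 library was left out, and without baseline NPSC 2 it was 2.05, the highest.

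CXCL8, interleukin 8, the best known neutrophil attractant of pigs and humans, was ENSSSCG00000008953 at 74083530 to 74086750 on the plus strand of chr8, with 3 exon blocks that cover 1915 bp. It had 389, 499 and 388 counts in the baseline libraries against 424, 447 and 931 with complement. The raw counts of the groups overlapped, and the complement NPSC libraries held fewer counts in all. Scaled to library size the levels were 56.39, 77.25 and 51.13 CPM in the baseline libraries against 94.37, 106.64 and 161.71 CPM with complement. Complement NPSC 3 was again the highest library and baseline NPSC 2 the highest of the baseline group. The mean was 61.6 ± 13.8 CPM (SD, n = 3) at baseline and 120.9 ± 35.9 CPM (SD, n = 3) with complement. The LFC was 0.98 (SE 0.24), or 1.97-fold, and it was 0.68 without complement NPSC 3 and 1.16 without baseline NPSC 2.

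The ratio of these neighbors does not depend on library scaling. CXCL2 had 0.712, 0.846 and 0.786 counts per count of CXCL8 in the baseline libraries against 1.65, 1.08 and 1.44 with complement. CXCL2 was the scarcer of the pair in counts in every baseline library and the more abundant in every complement library. AMCF-II, a pig CXC ligand of neutrophils that lies between them in the cluster, was at 8.55, 7.59 and 17.52 CPM in the baseline libraries against 16.91, 7.40 and 21.54 CPM with complement. Its groups overlapped, with an LFC of 0.45 (SE 0.39) and an adjusted p of 0.533 by edgeR's quasi-likelihood test.

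CCL2, monocyte chemoattractant protein 1, recruits monocytes and memory T cells through CCR2. It was the most abundant of the chemokine genes in every library. The gene, ENSSSCG00000017723, lay on the plus strand of chr12 from 42514168 to 42516128, with 3 exon blocks that cover 799 bp. It had 2350, 1946 and 2651 counts in the baseline libraries against 2642, 2303 and 4491 with complement. The levels were 340.68, 301.24 and 349.31 CPM against 588.01, 549.40 and 780.07 CPM. The baseline libraries were close to each other, and the highest of them was well below the lowest complement NPSC library. The mean was 330.4 ± 25.6 CPM (SD, n = 3) at baseline and 639.2 ± 123.6 CPM (SD, n = 3) with complement, with an LFC of 0.95 (SE 0.26), or 1.93-fold. The olfactory receptor density accounts for 0.364% of its counts. Without complement NPSC 3 the LFC was 0.75, and without complement NPSC 2 it was 1.03.

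CCL8, monocyte chemoattractant protein 2, shares much of its sequence and part of its receptor use with CCL2 and is mostly known from monocytes and macrophages. Its gene, ENSSSCG00000017721, lay at 42456842 to 42458852 on the same strand of chr12, 57.3 kb from CCL2 start to start, with 3 exon blocks that cover 855 bp. It had 178, 77 and 164 counts in the baseline libraries against 22, 24 and 12 with complement. The levels were 25.80, 11.92 and 21.61 CPM against 4.90, 5.73 and 2.08 CPM. Baseline NPSC 2 was the lowest of its group, still above every complement NPSC library, and complement NPSC 3 was the lowest of all. The mean was 19.8 ± 7.12 CPM (SD, n = 3) at baseline and 4.24 ± 1.91 CPM (SD, n = 3) with complement, with an LFC of -2.25 (SE 0.39), the second lowest of all genes tested. Its counts were 14.2, 10.5 and 19.4 times the olfactory receptor prediction in baseline NPSC and 1.63, 1.74 and 1.45 times in complement NPSC. The complement NPSC level of CCL8 was thus close to that background, and the LFC was -3.16 both with the background subtracted and with the density as a covariate. CCL1, a T cell ligand that lies between CCL8 and CCL2 in this cluster of 59.3 kb, had 8, 13 and 9 counts in the baseline libraries against 12, 11 and 4 with complement, so of the 3 ligands of the cluster the outer pair stood apart between the groups in opposite directions.

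The CCL2 count per count of CCL8 was 13.2, 25.3 and 16.2 in baseline NPSC. It was 120, 96.0 and 374 in complement NPSC. Since CCL8 is known from macrophages, their markers are given beside it. Of 12 such markers 7 were listed, none of these was at 0, and their summed level was 66.7 to 118.7 CPM per kb in baseline NPSC and 53.3 to 78.0 in complement NPSC. TYROBP, a signaling adaptor of myeloid cells, was at 20.44, 10.53 and 26.88 CPM in the baseline libraries against 10.02, 9.54 and 8.34 with complement, with an LFC of -1.06 and an adjusted p of 0.267 by edgeR. CD68, a lysosomal protein of macrophages, had an LFC of 0.11 and an adjusted p of 0.809. By edgeR none of the 7 passed the threshold and 3 were lower at an unadjusted p under 0.05 (4.28% of all genes). LYZ, lysozyme, was at 8.12, 4.18 and 14.49 CPM in the baseline libraries against 2.67, 0.24 and 2.43 with complement, which do not overlap. Its LFC was -2.28 (SE 0.59), with an adjusted p of 0.261 by edgeR and 0.0249 by DESeq2. DESeq2 called it lower (as were 0.125% of the genes it tested), but LYZ is on the study's own list of genes changed in these libraries. Over the 6 libraries its counts were 2.29 times the olfactory receptor prediction. Of the 7 markers 3 had a positive LFC, among them MRC1 at 0.31 and C1QA at 0.28, whose groups overlapped. The part of macrophage number or state in the CCL8 difference was not tested. Lymphocyte and granulocyte markers, the cells that CCL20, CCL5 and CXCL8 attract, summed to 16.0 to 22.7 CPM per kb in baseline NPSC and 21.3 to 39.7 in complement NPSC, and edgeR and DESeq2 called none, with 3 of 6 tested higher at an unadjusted p under 0.05 (10.9% of all genes). Their counts were 0.687 to 3.66 times the olfactory receptor prediction, which was higher in complement NPSC 1 and 2 as well, and its part in these values was not tested. CSF3R was listed at 0 in all libraries.

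CXCL14 and CCL5 were the genes that did not stand apart. CXCL14, a ligand made by many epithelia at rest, was ENSSSCG00000014310 on the plus strand of chr2 from 143444416 to 143453547, with 4 exon blocks that cover 1719 bp. It was at 10.29, 10.84 and 7.91 CPM in the baseline libraries against 12.69, 13.60 and 10.25 CPM with complement, and complement NPSC 3 was below baseline NPSC 1 and 2. Its LFC was 0.33 (SE 0.29). CCL5, or RANTES, a ligand of T cells and eosinophils, was ENSSSCG00000017705 on the plus strand of chr12 from 41217457 to 41228604, with 4 exon blocks that cover 4026 bp. It was at 21.60, 16.56 and 16.08 CPM in the baseline libraries against 32.05, 28.63 and 15.29 CPM with complement. Complement NPSC 3 was the lowest of the 6 libraries for CCL5, the reverse of its place for CXCL2, CXCL8 and CCL2. The LFC was 0.48 (SE 0.28). Counts of CXCL14 were 2.05 to 4.74 times the olfactory receptor prediction and those of CCL5 1.85 to 3.09 times, and the prediction came to 34.3% and 41.2% of their counts. With that density as a covariate the LFC was 0.089 for CXCL14 and -0.20 for CCL5.

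**Figure D2:**
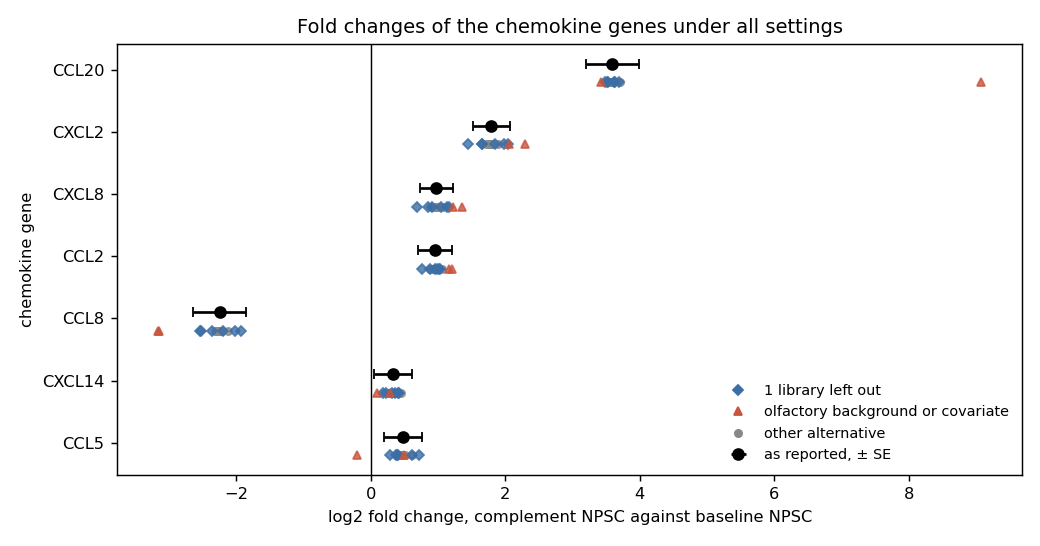
LFC of each chemokine gene, complement NPSC against baseline NPSC (horizontal axis, log2 scale), as reported with its SE (black) and under the alternatives (blue, 1 library left out; red, olfactory receptor background subtracted or used as a covariate; grey, other tests, scalings, filters and the replicate block). CCL5 alone crosses 0, at -0.20, and the red point of CCL20 at 9.08 comes from a baseline level that the subtraction takes to near 0.

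Per kb of exon, which allows genes to be compared, the levels spread over more than 2 orders of magnitude. In baseline NPSC the order of mean levels was CCL2 at 413.5 CPM per kb, CXCL2 at 39.2, CXCL8 at 32.2, CCL8 at 23.1, CXCL14 at 5.63, CCL5 at 4.49 and CCL20 at 1.29. The ranges of CXCL2 and CXCL8, of CXCL8 and CCL8, and of CXCL14 and CCL5 overlapped. Within each baseline library CXCL2 was nonetheless above CXCL8 and CXCL14 above CCL5, in 3 of 3 each, while CXCL8 was above CCL8 in 2 of 3. In complement NPSC the order was CCL2 at 799.95 CPM per kb, CXCL2 at 135.1, CXCL8 at 63.1, CCL20 at 15.9, CXCL14 at 7.08, CCL5 at 6.29 and CCL8 at 4.95. Here the range of CXCL14 overlapped with that of CCL5, which it exceeded in 2 of 3 libraries, and the range of CCL5 with that of CCL8, which it exceeded in 3 of 3. CCL20 went from the last place to rank 4 and CCL8 from rank 4 to the last.

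The summed level of the 7 genes was 531, 496 and 531 CPM per kb in the baseline libraries against 950, 873 and 1275 with complement, or 519 ± 20.6 against 1032 ± 213 (SD, n = 3). The groups did not overlap. CCL2 made up 79.5 ± 3.16% of the sum in baseline NPSC and 77.6 ± 1.10% in complement NPSC (SD, n = 3), a difference of -1.92 percentage points that was smaller than the spread of the baseline libraries. The share of CXCL2 was 7.61% against 12.8%, that of CXCL8 6.24% against 6.06%, that of CCL8 4.42% against 0.520% and that of CCL20 0.248% against 1.59%. CCL2 thus held most of the summed level in both groups, and CCL20, with the largest fold, a small part of it.

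**Figure D3:**
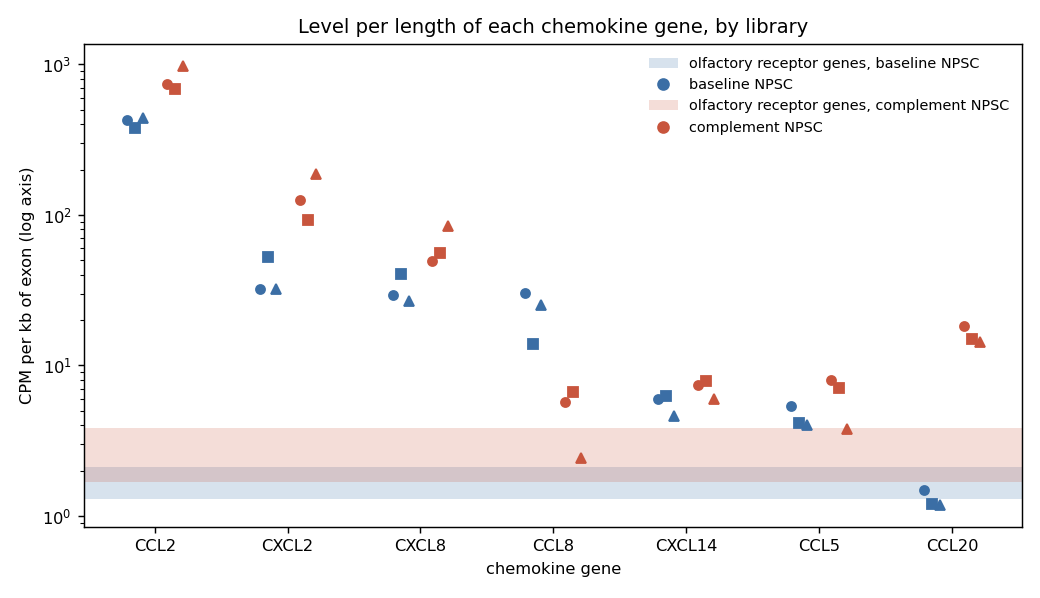
Level of each chemokine gene in CPM per kb of exon (log axis) in each library, with marker shapes for replicates 1 (circle), 2 (square) and 3 (triangle), and bands that span the olfactory receptor density of the 3 libraries of each group. CCL2 is the highest gene in both groups, baseline CCL20, at 1.19 to 1.49, lies within or below the baseline band (1.30 to 2.12) and complement NPSC CCL8 at 2.44 to 6.70 is close to the complement band (1.68 to 3.85).

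The other genes of chemokine biology were taken from 11 lists of ligands, receptors, upstream factors and enzymes with 145 symbols, of which 94 were listed and 83 tested. Of these 83, edgeR called 2 higher and 0 lower at an adjusted p under 0.05 and an LFC beyond 0.7, against 16 higher (0.0914%) and 2 lower (0.0114%) of all 17512 genes tested. At an unadjusted p under 0.05, 15 were higher against a background of 10.9% of all genes, and 3 were lower against 4.28%. DESeq2 called 4 higher (background 0.269%) and 0 lower (background 0.125%). The groups of 16 genes did not overlap with complement NPSC higher (background 8.95%), and those of 2 with complement NPSC lower (background 8.14%). The median LFC of the list genes was 0.051 beside 0.018 for all genes tested.

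JUNB and EGR1, the pair called by edgeR, code for transcription factors that bind promoters of inflammatory genes. JUNB was at 192.5, 195.1 and 185.8 CPM in the baseline libraries against 483.2, 407.9 and 653.1 with complement, with an LFC of 1.43 (SE 0.25) and an adjusted p of 0.0455 by edgeR. EGR1 was at 209.2, 173.1 and 133.9 CPM against 452.0, 479.0 and 1163 CPM, with an LFC of 2.02 (SE 0.36) and the same adjusted p. The groups were well apart in both, and complement NPSC 3 was the highest library, as it was for CXCL2, CXCL8 and CCL2. Both calls were near the threshold: JUNB was called in 11 and EGR1 in 10 of 16 alternatives, and neither was called without baseline NPSC 2 (adjusted p 0.387 for JUNB and 0.302 for EGR1) or without baseline NPSC 3 (0.300 and 0.156). JUNB was also lost without complement NPSC 1, at 0.0758. Over all alternatives the adjusted p ran from 9.65e-09 to 0.387 for JUNB and from 8.02e-12 to 0.302 for EGR1. Both genes are on the study's own list of genes changed in these libraries, so they are not independent evidence of a direction. The same holds for LYZ above and for NFKB1, NFKBIA, NFKBIZ, TNFAIP3 and DUSP1 below. HIF1A, the highest of these factors per kb in baseline NPSC (139.2 CPM per kb) but below JUNB, EGR1 and FOSL1 in complement NPSC, had an LFC of -0.15 and an adjusted p of 0.788 by edgeR.

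Of 14 NF-kB factors and inhibitors tested, edgeR called 0, while 6 were higher at an unadjusted p under 0.05 (10.9% of all genes), 8 did not overlap with complement NPSC higher (8.95%), and DESeq2 called 2 higher (0.269%). The median LFC of the list was 0.35. NFKB1, NFKBIA, NFKBIZ and TNFAIP3 are among the 6 and are on the study's own list of changed genes. These counts are therefore not independent of it. NFKBIA, the inhibitor of NF-kB that NF-kB itself induces, was at 150.2, 197.8 and 149.2 CPM in the baseline libraries against 299.8, 318.2 and 629.3 with complement. Its LFC was 1.33 (SE 0.30), with an adjusted p of 0.176 by edgeR and 0.00608 by DESeq2. NFKBIZ, a nuclear member of that family that takes part in the induction of secondary response genes, had an LFC of 1.36 (SE 0.31), with an adjusted p of 0.200 by edgeR and 0.0155 by DESeq2. Over the 16 alternatives NFKBIA was called in 5, with an adjusted p from 2.21e-06 to 0.573, and NFKBIZ in 4, from 7.19e-08 to 0.516. TNIP1, which curbs NF-kB signaling together with A20, had an LFC of -0.05 and overlapped.

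Among other CC ligands 7 of 18 were listed. EdgeR and DESeq2 called 0, and 1 of 7 tested was higher at an unadjusted p under 0.05 (10.9% of all genes). CCL19, a ligand of CCR7 on T cells and dendritic cells, was at 6.09, 3.87 and 4.22 CPM in the baseline libraries against 11.57, 10.74 and 9.21 with complement. Its groups did not overlap and its LFC was 1.15 (SE 0.33), with an adjusted p of 0.264 by edgeR. CCL3L1, a macrophage inflammatory protein gene that shares a chr12 cluster of 167.3 kb with CCL5, was at 13.92, 6.04 and 13.70 CPM against 7.79, 8.35 and 5.21 CPM, which overlap. Its LFC was -0.67 and its adjusted p 0.371. CCL17, a ligand of CCR4, had an LFC of 0.22. Of the other CXC and C ligands 3 of 13 were listed, AMCF-II, CXCL11 and XCL1, and edgeR tested 2 of them, not XCL1. It called 0, and 0 had an unadjusted p under 0.05. DESeq2 called 0 too, but gave an adjusted p for AMCF-II only. CXCL11 and XCL1 stayed under 3 CPM in every library.

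Of 18 chemokine receptors 12 were listed and 10 tested. EdgeR and DESeq2 called 0, 1 was higher at an unadjusted p under 0.05 (CX3CR1; 10.9% of all genes tested), and the median LFC was 0.52 beside 0.018 for all genes. Over the 6 libraries the counts of these 10 receptors were 0.347 to 3.20 times the olfactory receptor prediction (0.911 for CX3CR1). That density was itself higher in complement NPSC 1 and 2, and its part in the receptor values was not tested. The highest mean levels per kb were those of CCR1, a receptor of CCL5, CCR10 and CXCR6, at 6.80, 5.32 and 5.30 CPM per kb in baseline NPSC, with LFC of -0.48, 0.80 and 0.27 and adjusted p of 0.467, 0.330 and 0.587 by edgeR. CCR2, CXCR1 and CXCR2, the receptors of CCL2, CXCL8 and CXCL2, were not matched by symbol. CCR6, the receptor of CCL20, was listed at 0 in every library, on a scaffold where no gene had a count. ACKR3, a scavenger receptor of CXC ligands, had the highest mean level per kb among the chemokine and atypical chemokine receptors in both groups. It was at 144.5, 118.0 and 161.3 CPM in the baseline libraries against 87.9, 48.2 and 147 with complement, which overlap, with an LFC of -0.58 and an adjusted p of 0.357 by edgeR. ACKR4, a scavenger of CC ligands such as CCL19, had an LFC of -0.65 and an adjusted p of 0.309. CCRL2, an atypical receptor that binds chemerin, had an LFC of 0.36 and an adjusted p of 0.658. Of these 3 atypical receptors edgeR and DESeq2 called 0, and 1, ACKR4, was lower at an unadjusted p under 0.05 (4.28% of all genes).

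**Figure D4:**
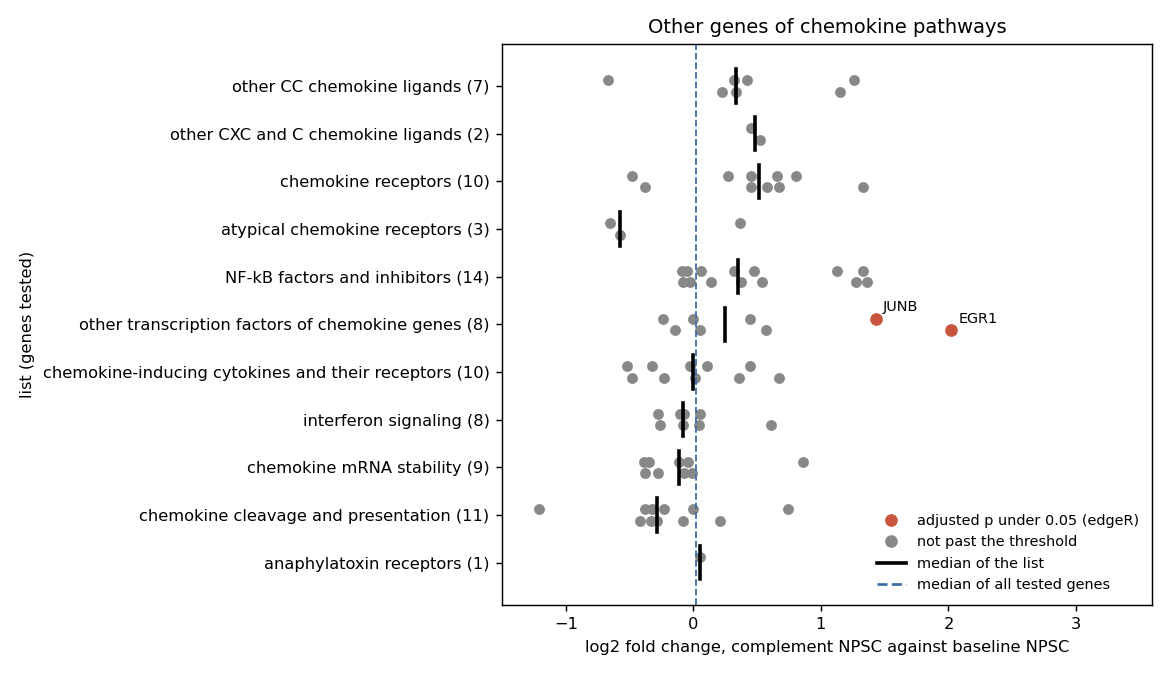
LFC of the tested genes of 11 lists of chemokine biology (horizontal axis, log2 scale, complement NPSC against baseline NPSC), with the number tested in parentheses, the list median as a black bar and the median of all genes as a dashed line. JUNB at 1.43 and EGR1 at 2.02 (red) are the genes past the edgeR threshold, and points are set off vertically only for legibility.

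In the 5 remaining lists edgeR and DESeq2 called 0, with 4 genes higher and 2 lower at an unadjusted p under 0.05 (10.9% and 4.28% of all genes). Of the cytokines that induce chemokines and their receptors 13 were listed and 10 tested, with TNFRSF1A, the main TNF receptor of stromal cells, at 214.4, 230.3 and 249.3 CPM in the baseline libraries against 147.1, 141.5 and 206.9 with complement. Its LFC was -0.49 and its adjusted p 0.325 by edgeR. IL6ST and IL17RA, receptor chains for IL-6 and IL-17, had LFC of -0.23 and -0.03. The 8 interferon signaling genes tested had a median LFC of -0.08, with -0.26 for JAK1, -0.08 for TYK2 and -0.11 for IRF9. IRF1, a factor induced by interferons and NF-kB, was the 1 gene of this list whose groups did not overlap, at 52.9, 52.3 and 61.7 CPM in the baseline libraries against 68.3, 73.7 and 112.7 with complement (LFC 0.61, adjusted p 0.272 by edgeR). In the list on mRNA stability DUSP1, the phosphatase that switches off p38 and so shortens the life of chemokine mRNAs, had the highest LFC, 0.86 (SE 0.24), with an adjusted p of 0.261. ZFP36L1, which binds AU-rich elements and hastens decay, and HNRNPD, which binds them too, had LFC of -0.04 and -0.11. Among enzymes and proteoglycans that cleave or present chemokines, MMP2 had an LFC of -0.08, SDC2 of -0.38 and HSPG2, perlecan, of -0.33, and all 3 overlapped. The groups did not overlap for MMP9, a gelatinase that trims CXC ligands, with an LFC of -1.21 (adjusted p 0.272), and for DPP4, a peptidase that shortens chemokines, with an LFC of 0.74 (adjusted p 0.282). Counts of DPP4 over all libraries were 1.53 times the olfactory receptor prediction. C5AR2, 1 of 2 anaphylatoxin receptors listed, had an LFC of 0.05. C3AR1 was listed at 0.

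As a description, the genes whose level over the 6 libraries was most like each chemokine were sought among 11055 tested genes with a symbol, by Pearson's r of log2 CPM. All 6 libraries share their group with 2 others, so each r holds the difference between the groups. CCL20 was closest to E2F7 (0.997), ZC2HC1B (0.993) and FGD5 (0.990), which separate the groups with little spread inside them. CXCL2 was closest to EGR3 (0.996), RAD51B (0.989) and LMCD1 (0.986). EGR3 was at 10.0, 15.8 and 8.70 CPM in the baseline libraries against 48.5, 30.3 and 63.9 with complement, with the same order of libraries in complement NPSC as CXCL2. CXCL8 was closest to NFKBIA (0.986), TNFAIP3 (0.981) and NFKBIZ (0.981), inhibitors and modulators of NF-kB. CCL2 was closest to GEM (0.991), MARCHF3 (0.990) and MSC (0.988), and CCL8 to ZNF182 (0.992), TSN (0.987) and CITED1 (0.985). EGR3, LMCD1, NFKBIA, TNFAIP3, NFKBIZ, GEM and MSC are also on the study's own list of genes changed in these libraries.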

How the data were processed

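RNA of 3 baseline and 3 complement NPSC cultures was sequenced by a service laboratory. The authors' processing notes name Trimmomatic 0.36, STAR 2.5.2b and featureCounts of Subread 1.5.2. The deposited values were raw counts per gene, with exon coordinates and lengths. The genome build and the strand setting of the counting are not given in the sources used here. Symbols came from a gene name table, and CCL20 and CCL8 were matched by gene identifier. Counts were fitted with edgeR 4.0.16 (R 4.3.3; filterByExpr, TMM, quasi-likelihood test, Benjamini-Hochberg over all 17512 genes tested). CPM used TMM library sizes. DESeq2 1.42.0 was an alternative. Both tools were tested on simulated data. Within groups, pairs of libraries differed by more than counting noise (chi-square per degree of freedom 4.34 to 17.7), so each library counted as 1 replicate. The study used 3 litters and 3 plates per group, but the sources do not say which litter gave which library, so p-values measure the spread between these samples, which may be technical. A gene's expected background was taken as its exon length multiplied by a library's counts per kb over 48 olfactory receptor genes. The members and lists were chosen with earlier results of these data known. Named genes were the members, ligands inside the ligand clusters, and from each list the called genes and the 3 (2 for cell markers) with the highest CPM per kb, with marker genes at 0 counts. LYZ, MRC1, C1QA, NFKB1, IRF1, MMP9, DPP4, CX3CR1, FOSL1, CCR6, C3AR1, CCR2, CXCR1 and CXCR2 were named after their values or absence were seen. The likeness measure used log2 CPM with a prior count of 2.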

Additional observations from a re-analysis of the deposited data

How the results depend on the processing

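Over all genes, edgeR called 18, and the count was 63 with DESeq2, 31 with no filter beyond 1 count, 31 with the olfactory receptor background subtracted and 63 with its density as a covariate. It ran from 9 to 1540 when 1 library was left out (9 without baseline NPSC 2, 327 without baseline NPSC 1 and 1540 without complement NPSC 3). Of the list genes edgeR called 2. This was 4 with DESeq2, 1 with at least 10 counts in every library, 5 with the background subtracted and 10 with the density as a covariate. It was 0 in edgeR with DESeq2 size factors (18 at an unadjusted p under 0.05) and 0 without the 20 genes with the most counts (17 at an unadjusted p under 0.05). Leaving out 1 library gave 0 to 11, with 0 without baseline NPSC 2 or 3, 1 without complement NPSC 1 and 11 without complement NPSC 3. Upper-quartile scaling moved the median LFC of all genes by 0.11 and gave 21 genes higher and 0 lower in place of 16 and 2. The cause of these shifts was not tested.

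The replicate block gave 1575 genes with edgeR and 305 with DESeq2, and 11 and 6 list genes. The numbers could not be taken as pairing the samples: deviations of same-numbered libraries correlated at 0.456, 0.0302 and 0.482, and complement NPSC 2 correlated best with baseline NPSC 1, at 0.284. The chemokine genes kept the sign of their LFC under all alternatives, except CCL5, at -0.20 with the density as a covariate. CCL20 had no value with at least 10 counts in every library, since its baseline counts, 6 to 8 per library, are lower.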

Other observations

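All 2451 genes on unplaced scaffolds were listed at 0 in every library, against 839 of 22698 genes (3.70%) elsewhere. A 0 there gives no level of the gene. Among the genes named for chemokine biology and cell markers, these included CCR6, TNFRSF1B, C3AR1, CSF3R, CYP11A1 and MYH11. IL6, IRF7 and ZFP36 were also listed at 0, though they lie on chromosomes.

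In the chr12 cluster that holds CCL3L1 and CCL5, 3 genes without a symbol lie between them. ENSSSCG00000017704 had 29, 19 and 20 counts at baseline against 50, 35 and 25 with complement, which overlap as raw counts and do not overlap as CPM, and an LFC of 1.27. ENSSSCG00000017702 had 46, 83 and 99 counts at baseline against 31, 28 and 11 with complement, with an LFC of -1.10, and its groups overlapped in CPM. These genes were singled out after their values were seen.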
